A study of Mus musculus with 36 samples.

Results

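Excitatory synapses answer glutamate through receptors of several families, and 32 genes of these families and of their partner proteins are described here in single mouse neurons. They are 22 receptor genes, namely 4 AMPA, 5 kainate and 7 NMDA receptor subunits and 6 metabotropic glutamate receptors, and 10 genes of auxiliary proteins. The genes were chosen by name from the 55359 genes of the deposited table, by family and not by a threshold on a value. All 32 were found. The table holds 36 neurons, each 1 library of polyadenylated RNA made with a SMART-Seq kit. By tissue label 22 neurons came from sSC and 12 from dSC, taken here to be the superficial and deep layers of the superior colliculus, and 2 from PAG, taken to be the periaqueductal grey. The neurons form 18 pairs of siblings, and each pair is a clone, the marked offspring of 1 radial glia progenitor that was labelled on embryonic day 12. Every mouse carried the MADM reporter genotype M11GTTG, which colours the daughters of a dividing cell by recombination between chromosomes, on a mixed C57/Bl6, FVB and CD1 background. Recombination was started by Fz10-CreER in 11 clones (22 cells) and by Sox2-CreER in 7 clones (14 cells), so each clone is limited to progenitors in which that driver was active. The labels name no animals and no age at collection for a cell, and they mention ages from embryonic to postnatal stages for the study as a whole.

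AMPA receptors are tetramers of the subunits encoded by Gria1 to Gria4 and carry most of the fast excitatory current. Kainate receptors (Grik1 to Grik5) are related channels, in which the Grik1 to Grik3 products form the core and the Grik4 and Grik5 products join as high-affinity partners. NMDA receptors need the Grin1 product, take a glutamate-binding partner from Grin2a to Grin2d, which sets their kinetics and magnesium block, and can include a glycine-binding Grin3 product. Metabotropic receptors (Grm genes) signal through G proteins: Grm5 belongs to the group that releases calcium from stores, while Grm2 and Grm3 form one further group and Grm4, Grm7 and Grm8 another, both of which lower cyclic AMP. The transmembrane AMPA receptor regulatory proteins, or TARPs (the Cacng genes listed here), the cornichons (Cnih2, Cnih3) and Shisa9 bind AMPA receptors and change their traffic or gating, while Neto2 does this for kainate receptors. The superficial superior colliculus receives glutamatergic input from retina and cortex, and it holds excitatory neurons, marked by the vesicular glutamate transporter Slc17a6, and many inhibitory neurons, marked by the GABA-making enzymes Gad1 and Gad2 and the vesicular transporter Slc32a1.

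One codon separates the AMPA subunits in function and is the reason to look at their proportions. In the pore of each subunit a codon for glutamine lies at the Q/R site, and in Gria2 transcripts the editing enzyme encoded by Adarb1 turns it into a codon read as arginine, which makes receptors that contain the subunit nearly impermeable to calcium. The coding strand around that codon is shown for the 4 genes, each from 1 transcript of GENCODE release M21 (build GRCm38, which is older than the build of the deposited data), with the codon in capitals.
Gria1, chr11:57243082-57243114, plus strand, exon 11: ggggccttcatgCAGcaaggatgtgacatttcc
Gria2, chr3:80706893-80706925, minus strand, exon 11: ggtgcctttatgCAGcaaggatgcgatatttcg
Gria3, chrX:41610253-41610285, plus strand, exon 11: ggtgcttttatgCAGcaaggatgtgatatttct
Gria4, chr9:4464119-4464151, minus strand, exon 12: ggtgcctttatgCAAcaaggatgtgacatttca
Over these 33 bases the Gria1 stretch differs from that of Gria2 at 5 positions, the Gria3 stretch at 3 and the Gria4 stretch at 4. Editing was not measured here, since the table gives 1 value per gene. Adarb1 was at a value of 1 or more in 35 of 36 cells, with a median of 34.4.

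Values are the deposited expression signal, which the authors call TPM of exon plus intron and which sums to 2000000 in each cell. By that name it is scaled to gene length, so levels of different genes are compared on this scale. Read depth is unknown, and the number of genes at 1 or more stands for library quality. This number had a median of 12058 and a range of 2661 to 16769. The lowest library, the sSC cell of clone B, stood apart from the next lowest at 6180, the sSC cell of clone H. A value of 0 may mean that capture failed: the neuronal gene Tubb3 was at 0 in 3 cells, while Snap25, Syt1, Rbfox3 and Map2 were above 0 in all 36. Transcripts of other cell types were also present. The summed level of 8 astrocyte markers ran from 100.3 to 2293 (median 896), and that of 5 oligodendrocyte markers from 316.6 to 8007 (median 1165). For 8 microglial markers the sum ran from 29.8 to 12930 (median 1830), and for 4 markers of oligodendrocyte precursors from 0 to 514.1 (median 51.25). The sum of 6 neuronal markers had a median of 3451. Single microglial genes were high, with medians of 379.6 for Tyrobp and 400.4 for Ctss. Among the defining genes Aldh1l1 was at 0 in 20 cells, Pdgfra in 25, Mog in 9 and P2ry12 in 5, whereas Mobp was above 0 in all 36. The other astrocyte markers were at 0 in fewer cells, from 0 (Atp1b2) to 15 (Sox9). The other precursor markers were at 0 in 10 (Olig1) to 24 cells (Cspg4 and Olig2). The part of such transcripts in the results below was not tested beyond the values given beside them.

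A cell held a median of 26 of the 32 genes at a value of 1 or more, with a range of 10 to 31. The most abundant were an AMPA receptor cornichon, the obligate NMDA subunit and the AMPA subunit with the edited site. Cnih2 ran from 0 to 655.9 with a median of 259, Grin1 from 1.06 to 956.4 with a median of 198.4, and Gria2 from 0 to 766.3 with a median of 197.8. These medians lie at the 93.2, 91.4 and 91.3 percentile of all genes whose median is above 0. Gria4 (median 126.7), Gria1 (94), Grm5 (68.3), Cacng2 (57.7), Gria3 (53.0) and Grm7 (47.1) came next. The middle ranges of neighbours in this order overlap: the middle 18 cells lay between 144.7 and 317.8 for Cnih2, 84.3 and 319.6 for Grin1 and 95.1 and 272.6 for Gria2.

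A middle tier had medians between 10 and 40. It held Neto2, Grik2, Cacng3, Grin2b, Grik5, Shisa9, Grin2a, Grin3a, Grik1, Grin2d, Grm3 and Cacng4, from 36.2 for Neto2 down to 11 for Cacng4. Below these stood Grm8 (9.80), Grm4 (6.46), Grik3 (4.70), Grik4 (3.81), Cnih3 (2.57), Cacng7 (0.688) and Cacng5 (0.426). Some genes of low median reached high values in single cells. Cnih3 was at 0 in 12 cells and at 351.7 in the sSC cell of clone I, and Grm3 was at 0 in 5 cells and at 333.4 in 1 sSC cell of clone T.

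Grin2c, Grm2, Cacng8 and Grin3b had a median of 0. Grin3b was above 0 in 2 cells only, at 303.7 in 1 sSC cell of clone R and at 19.8 in the sSC cell of clone I. It overlaps Tmem259 on the opposite strand, and whether reads were counted by strand is not given in the sources used here, so the gene that gave these reads cannot be told. Grin2c reached 180.6 in the sSC cell of clone B, the library with the fewest genes, and at most 12.9 in any of the other cells. In all, 17 of the 32 genes overlap an annotated gene on the opposite strand, and their values carry the same limit. They include Grin1 (Grin1os), Grin2d (Kdelr1) and Cnih2 (Yif1a), and Cacng3, Cacng8, Grm4 and Grm5, which overlap predicted genes.

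**Figure D1:**
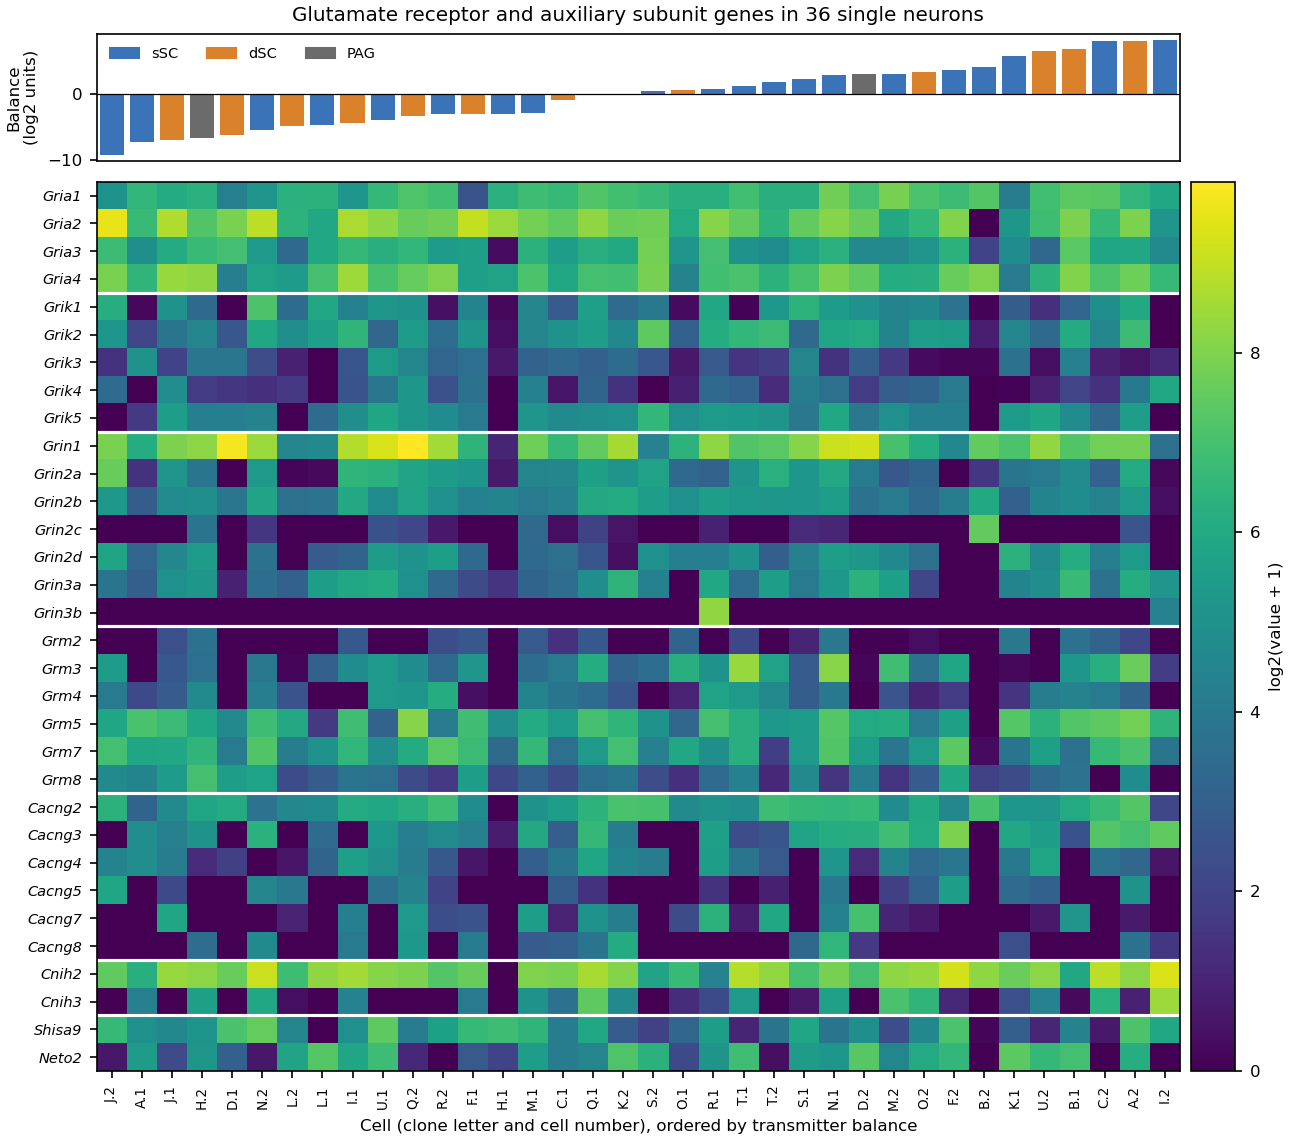
Each column of the lower panel is 1 of 36 neurons, ordered by transmitter balance (upper panel, log2 units, coloured by tissue), and each row is 1 of the 32 genes, coloured by log2(value + 1). Gria1, Gria4 and Grin1 are above 0 in every cell, and Grin3b is above 0 in 2.

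Within a family, shares of the summed value were taken per cell where the sum reached 10. They say which subunit dominates on this scale whatever the level. Gria2 was the leading AMPA subunit in 24 of 36 cells, Gria4 in 7, Gria1 in 5 and Gria3 in none. Gria2 had a median share of 38.4% in a range of 0 to 83.5%, in which the 0 belongs to the sSC cell of clone B. Median shares were 28.3% for Gria4, 21.4% for Gria1 and 11.1% for Gria3. Gria4 is a subunit of fast gating, and Gria1 is prominent in forebrain receptors. In dSC the median value was higher for Gria1 (85.1) than for Gria4 (76.1), while the median share was 21.7% for Gria1 and 23.3% for Gria4. AMPA subunits made up 60.9% of the summed AMPA and NMDA values in the median cell, between 27.2 and 95.0%.

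No GluN2 subunit dominated. Grin2a led in 13 cells, Grin2b in 13, Grin2d in 9 and Grin2c in 1, the clone B cell already named. The median shares among the 35 cells with a sum of 10 or more were 33% for Grin2a, 35.5% for Grin2b and 25.2% for Grin2d. Grin2b, the form that predominates early in development, took the whole sum in at least 1 cell. Grin2a was at 0 in 2 of the 36 cells and Grin2d in 6, which include any cell where Grin2b took the whole sum. Both PAG cells were led by Grin2d, with shares of 44.0 and 56.9%. Grin1 made up a median 59.1% of all NMDA subunit values, and Grin3a 7.45%.

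**Figure D2:**
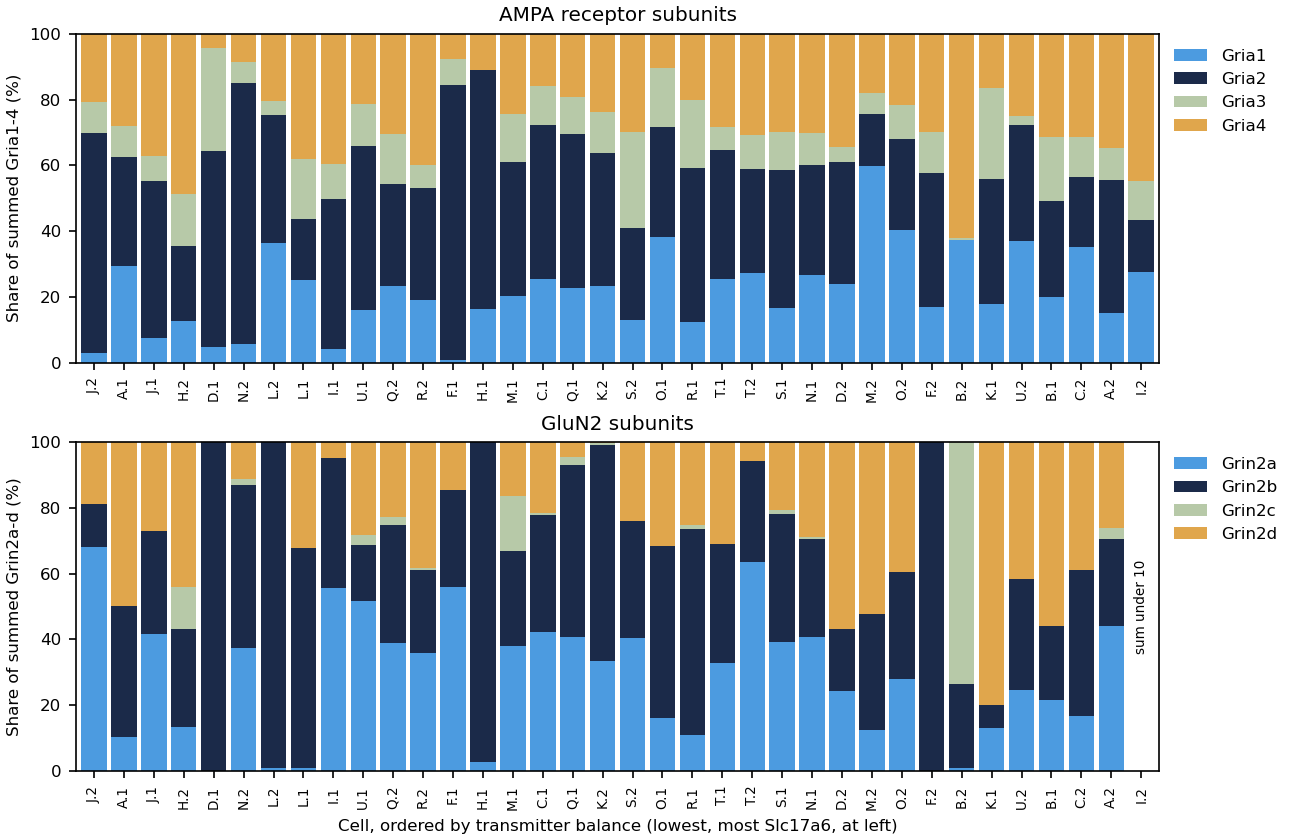
Bars are single cells in order of transmitter balance, and colours give the share, in percent, of each AMPA subunit (upper panel) or GluN2 subunit (lower panel) in the summed value of its family. Gria2 takes the largest part in 24 cells, and the lower panel changes its leading subunit from cell to cell.

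Among the kainate subunits Grik2 led in 16 cells, Grik5 in 11, Grik1 in 6, Grik3 in 2 and Grik4 in 1. All 6 cells led by Grik1 were sSC cells, but the level of Grik1 hardly differed between the tissues. Its sSC minus dSC difference was 0.09 on the log2(value + 1) scale (SE 0.832, unadjusted p = 0.914, limma). Grik1 was higher in the sSC sibling in 5 of the 9 clones with a sibling in each tissue. Grm5, the receptor coupled to calcium stores, led the listed metabotropic genes in 19 cells, Grm7, a presynaptic receptor of low glutamate affinity, in 8 and Grm3 in 5. Of the TARPs, Cacng2 (stargazin) led in 21 cells, Cacng3 in 10 and Cacng7 in 3. In sSC Cacng3 led in 9 of 22 cells and in dSC in 1 of 12. Counts of leading genes treat siblings as separate cells and carry no test.

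The comparison of sSC with dSC asks whether neurons of the layers that receive retinal input differ in receptor genes from those below. Cells of 1 clone and tissue were averaged, which left 16 sSC and 11 dSC means. None of the 31 genes tested passed at an adjusted p of 0.05 in limma, where the percentage over all 14613 genes tested was 0, and none had an unadjusted p under 0.05, against 5.16% of all genes. Of the 31, 9 were higher and 22 lower in sSC, and of all genes tested 32.7% were higher. The 31 genes are set beside all genes in the same way by size. Their median difference of -0.39 on the log2(value + 1) scale stood beside -0.31 for all genes tested, and both move to about 0 when the samples are quantile normalised (0.01 and -0.01). These p-values describe the spread between clones, and several clones may come from 1 animal.

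Cacng7, a TARP of the type II group, had the smallest p. It ran from 0 to 81.9 with a median of 0 in sSC cells and from 0 to 54.9 with a median of 2.47 in dSC cells, so the groups overlap throughout. The clone means were 1.27 ± 1.83 (SD, n = 16) in sSC and 2.54 ± 2.18 (SD, n = 11) in dSC on the log2 scale, a difference of -1.27 (SE 0.767, adjusted p = 0.971, limma). It was -2.85 with a pseudocount of 0.1, -0.39 with 10 and -0.73 with the number of genes detected as a covariate. Cacng3 lay the other way, with a median of 42.6 in sSC (0 to 247.5) and 12.3 in dSC (0 to 124.8). Its difference was 1.41 (SE 0.938, adjusted p = 0.971, limma). Grik5 (-1.11, SE 0.808), Grm5 (-0.97, SE 0.732), Grm2 (-0.66, SE 0.512) and Grin1 (-0.95, SE 0.746) completed the 6 genes of smallest p, each with an adjusted p of 0.971 in limma.

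**Figure D3:**
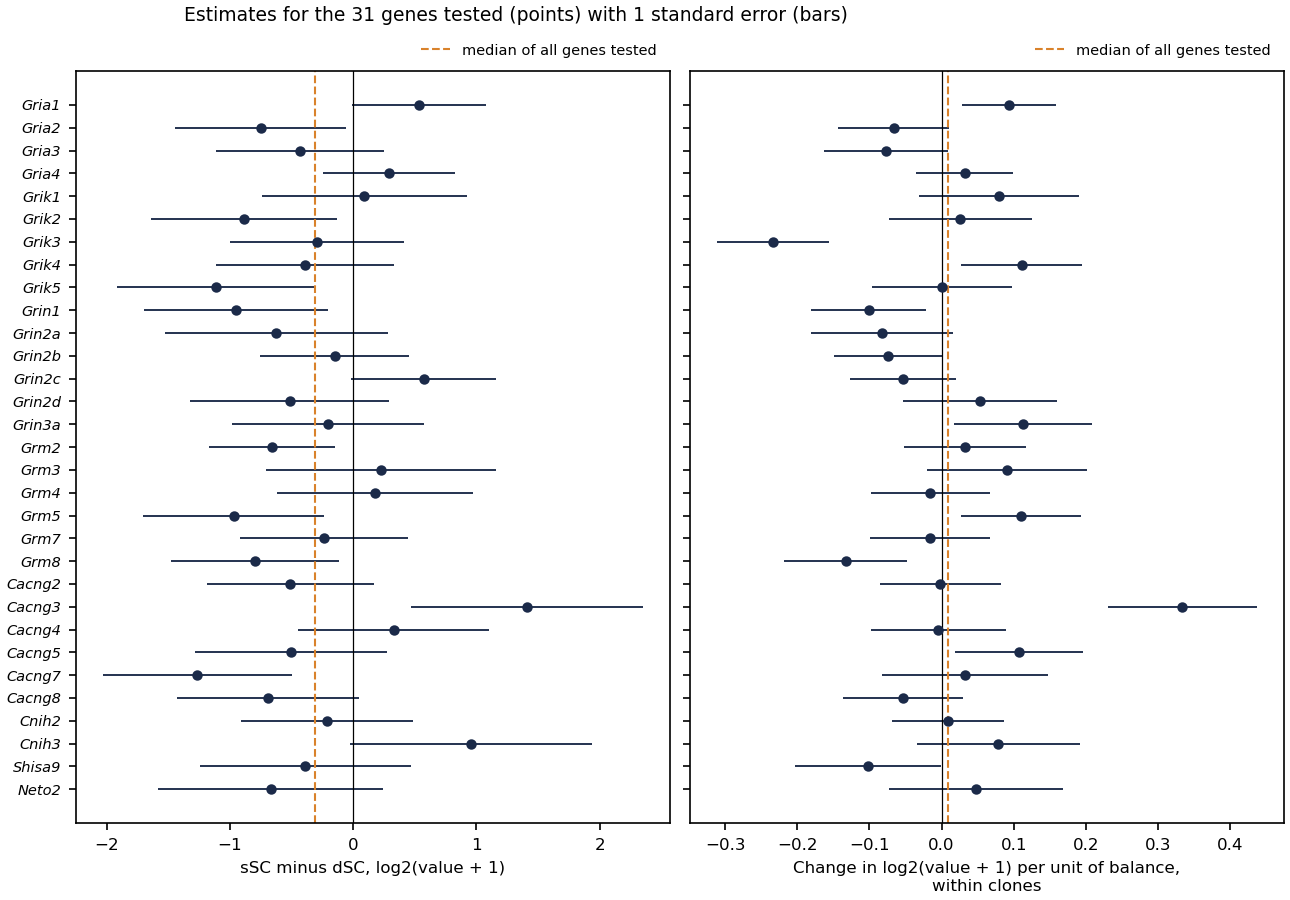
Points are limma estimates for the 31 genes tested and bars 1 standard error, as the difference of sSC from dSC on the log2(value + 1) scale (left) and as the change per unit of transmitter balance within clones (right). The dashed line is the median of all genes tested. None of the points passed at an adjusted p of 0.05, and Cacng3 and Grik3 lie farthest from the line on the right.

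In 9 clones 1 sibling lay in sSC and the other in dSC, so that tissue could be compared within a clone. Cacng7 was lower in the sSC sibling in 9 of 9 clones, a count that was looked at after its values were seen and that 0.424% of the 14613 genes tested share. The 9 dSC siblings ran from 0.62 to 54.9 with a median of 4.73. In sSC 8 of the 9 siblings were at 0, and the sibling in clone Q was at 32.4 beside a dSC cell at 39.1. For 4 of the 9 dSC siblings the value itself was under 1. Of the 13 sSC cells of clones without a dSC sibling, 5 were at 0 and 7 at 1 or more, with a median of 1.04 and a highest value of 81.9. Their difference from the paired sSC cells was not tested. Fitted with clone as a block, Cacng7 had a difference of -2.38 (SE 0.825, unadjusted p = 0.0103, adjusted p = 0.489, limma). In that fit 9.02% of all genes, and Cacng7 and Cacng8 among the 31, had an unadjusted p under 0.05.

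The dSC sibling had more genes at 1 or more in 7 of these 9 clones, and the summed astrocyte and microglial markers were each higher in it in 7 of 9. Across the 36 cells Cacng7 had a Spearman rho of 0.545 with the number of genes detected and of 0.481 with the astrocyte sum, both given as descriptions. The 9 of 9 count becomes 8 of 8 without clone B.

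Cacng8, which is best known from hippocampal AMPA receptors, was lower in the sSC sibling in 5 of 9 clones and at 0 in both siblings in the other 4. The highest pair was that of clone Q, at 37.8 in dSC and 13.2 in sSC. Its blocked difference was -1.65 (SE 0.713, unadjusted p = 0.0335, adjusted p = 0.53, limma). Grm5 was lower in the sSC sibling in 8 of 9 clones. The share of all genes that reach this count, or that of Cacng8, was not taken. Its blocked difference was -1.895 (SE 0.913, unadjusted p = 0.053, adjusted p = 0.555, limma). In that fit 23.1% of all genes were higher in sSC, with a median difference of -0.66. The dSC siblings had a median Grm5 value of 115.9 (40.8 to 272.1), and the sSC siblings one of 57.4 (0 to 174.9). Clone C ran the other way, with 40.8 in dSC and 174.9 in sSC, and the 0 is the clone B library.

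**Figure D4:**
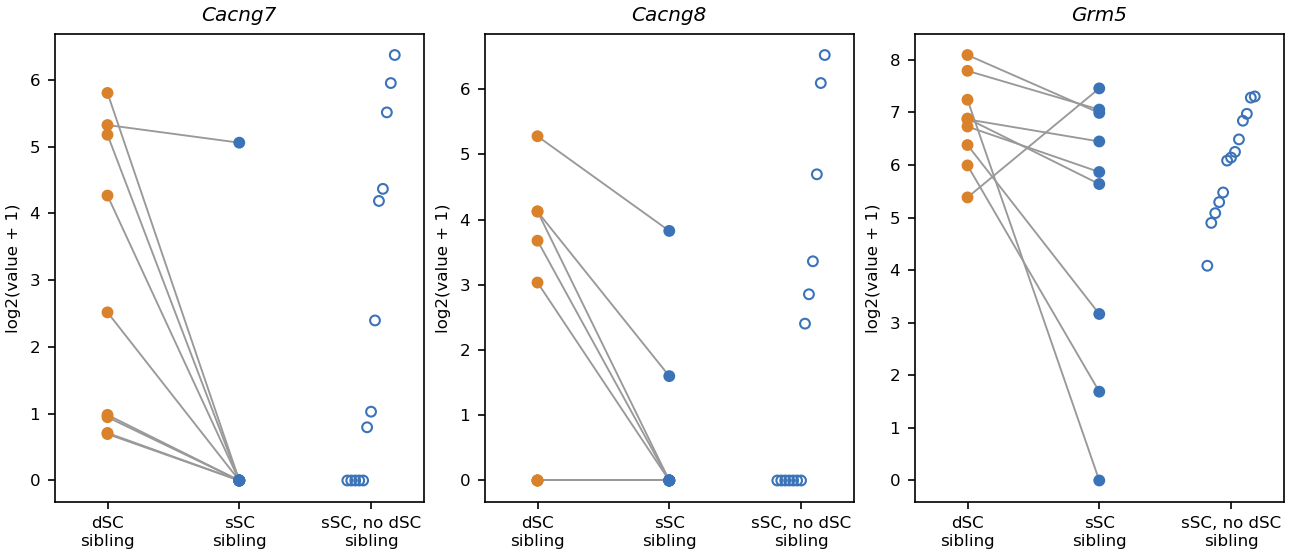
Points are single cells as log2(value + 1), lines join the dSC and sSC sibling of 1 of 9 clones, and open points are the 13 sSC cells of clones without a dSC sibling. Cacng7 is lower in the sSC sibling in 9 of 9 clones, and of the 13 open points 5 are at 0 and 7 at a value of 1 or more.

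Subunit shares were compared between the tissues by permutation tests over clone means, 15 shares in all. Clones with a sibling in each tissue gave a mean to both sides, and these tests did not use that pairing. None passed after adjustment. The smallest unadjusted p was that of the Grin1 share of NMDA subunits, at 52.0% ± 21.4 (SD, n = 16) in sSC and 65.3% ± 16.6 (SD, n = 11) in dSC (two-sided permutation p = 0.0964, adjusted p = 0.602). The Grik2 share of Grik1 to Grik3 was 45.5% ± 21.4 (SD, n = 13) in sSC and 59.5% ± 19 (SD, n = 11) in dSC (permutation p = 0.109, adjusted p = 0.602). Cacng2 made up 44.8% ± 29 (SD, n = 15) of the Cacng2, Cacng3, Cacng4 and Cacng8 sum in sSC and 62.3% ± 24.6 (SD, n = 11) in dSC (permutation p = 0.12, adjusted p = 0.602), but the difference turned to 2.61 percentage points in favour of sSC where the sum had to reach 100. Gria2 shares were 37.5% ± 18.8 (SD, n = 16) in sSC and 44.4% ± 15.9 (SD, n = 11) in dSC, a difference of -6.87 percentage points (permutation p = 0.336, adjusted p = 0.747). The difference between these unpaired means was thus smaller than the spread between clones for each of these shares. Within clones with a sibling in each tissue, sSC minus dSC was -9.15 percentage points for the Grin1 share and -11.7 for the Gria2 share (9 pairs each). It was -15 for the Cacng2 share (9 pairs) and -21.2 for the Grik2 share (7 pairs). Paired permutation p values were 0.25, 0.168, 0.18 and 0.219 in that order, each with an adjusted p of 0.69.

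The next comparison asks whether receptor genes differ between excitatory and inhibitory cells. Transmitter balance was taken on the log2(value + 1) scale, as the average of the GABA markers Gad1, Gad2 and Slc32a1 less the Slc17a6 value. It ran from -9.22 in the most Slc17a6-rich cell to 8.18 in the most GABA-rich. As a description, 11 cells had Slc17a6 alone above 100, 19 had a Gad gene alone, 5 had both and 1 had neither. The cut is arbitrary, with Slc17a6 within 1.5-fold of it in 8 cells and the higher Gad gene in 6. The test used the balance itself and compared siblings within clones.

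Of the 31 genes, none passed at an adjusted p of 0.05 in limma, where 0.0336% of 14902 genes did, and 2 had an unadjusted p under 0.05, against 4.07% of all genes. The 5 genes called included Slc17a6 and Gad1, which define the balance. By direction 17 of the 31 were higher and 14 lower with more GABA marker, and their median slope was 0.01 per unit, as for all genes.

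Cacng3 had the smallest p. Its median was 54.7 in the 19 Gad cells (0 to 247.5) and 18.9 in the 11 Slc17a6 cells (0 to 78.5), so the ranges overlap. It was higher in the sibling with the higher balance in 16 of 18 clones, a count taken after the values were seen, and 0.0604% of the 14902 genes reach 16 or more. The widest gaps were in clone I, at 0 in the dSC cell and 178.4 in its sSC sibling, and in clone F, at 18.96 and 247.5. Clones H and N ran the other way, with 32.8 and 78.5 in the sibling with more Slc17a6 and 0.665 and 69.6 in the other. The slope was 0.33 log2 units per unit of balance (SE 0.103, unadjusted p = 0.00315, adjusted p = 0.752, limma). It stayed between 0.278 and 0.401 when each clone was left out in turn, with adjusted p from 0.379 to 1 in limma. Over the other settings it lay between 0.213 (pseudocount 10) and 0.663 (GABA markers alone as covariate), with adjusted p from 0.24 to 1. Across the 36 cells Cacng3 had a Spearman rho of 0.374 with the number of genes detected and of -0.37 with the microglial sum. Both are given as descriptions, and their part in the slope was not tested.

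Grik3 was the gene of second smallest p, with the opposite sign. Its median was 1.81 in the 19 Gad cells (0.128 to 21.5) and 8.31 in the 11 Slc17a6 cells (0 to 41.4). It was lower in the sibling with the higher balance in 13 of 18 clones, as were 1.72% of all genes in 13 or more. The widest gap was in clone U, at 41.4 in the sSC cell with more Slc17a6 and 0.285 in its dSC sibling. The slope was -0.23 (SE 0.0779, unadjusted p = 0.00568, adjusted p = 0.838, limma), and between -0.258 and -0.2 with each clone left out. Over the other settings it lay between -0.39 (Slc17a6 alone as covariate) and -0.09 (pseudocount 10), with adjusted p from 0.406 to 1. The levels are low, so that a difference on the log2(value + 1) scale understates the ratio.

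**Figure D5:**
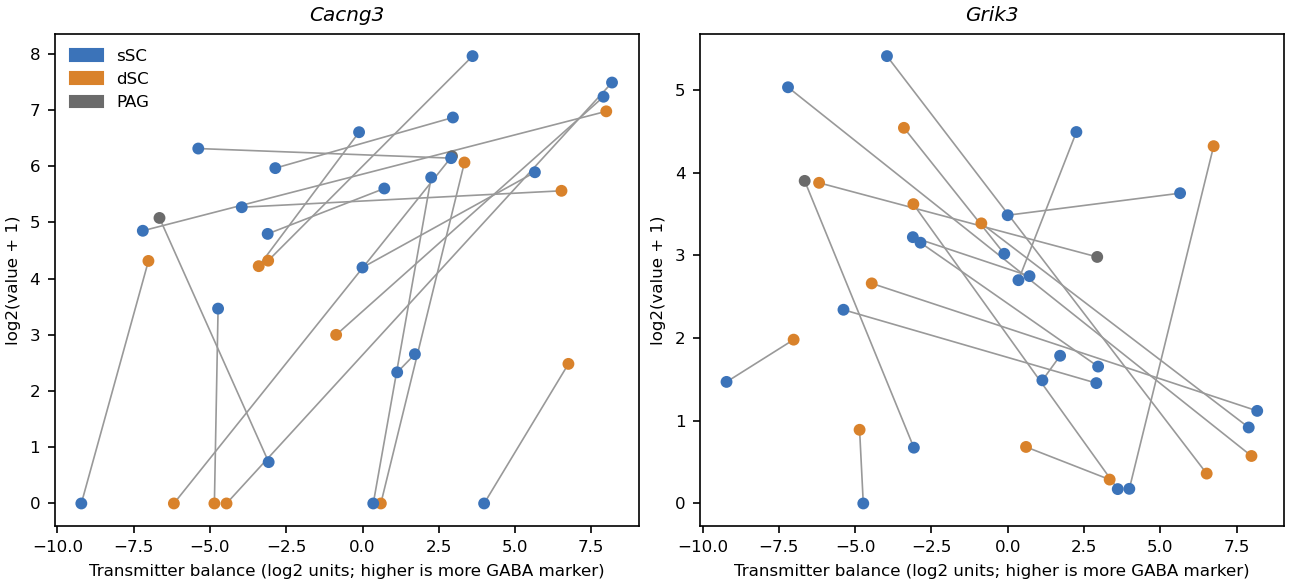
Points are single cells coloured by tissue, lines join the 2 siblings of a clone, the x axis is transmitter balance in log2 units (higher is more GABA marker) and the y axis is log2(value + 1). Cacng3 is higher in the sibling to the right in 16 of 18 clones, and Grik3 is lower in it in 13.

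The other genes of small p were Grm8 (slope -0.13, SE 0.0852), Gria1 (0.09, SE 0.0652), Grik4 (0.11, SE 0.084) and Grm5 (0.11, SE 0.0829), each with an adjusted p of 1 in limma. Gria1 was higher in the sibling with more GABA marker in 13 of 18 clones, and Gria2 was lower in it in 12. The share of all genes that reach these counts was not taken. Other listed genes reached similar counts, with Grin2b lower in 13 clones, Grin2a lower in 12 and Grm5 higher in 12. Medians were 118.3 for Gria1 and 182.7 for Gria2 in the Gad cells, and 80.0 and 214.3 in the Slc17a6 cells. In glia-marker terms, the astrocyte sum was higher in the sibling with more GABA marker in 12 of 18 clones, the oligodendrocyte sum in 7 and the microglial sum in 5, and more genes were detected in it in 10.

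None of the 15 subunit shares passed after adjustment along the balance. The Gria2 share was lower in the sibling with more GABA marker in 12 of 18 clones, with a slope of -1.5 percentage points per unit of balance (two-sided permutation p = 0.0714, adjusted p = 0.336). The Gria1 share was higher in 12 of 18, with a slope of 1.11 (permutation p = 0.0794, adjusted p = 0.336). Median Gria2 shares were 38.8% in the Slc17a6 cells (18.6 to 79.1), 33.4% in the Gad cells (0 to 46.7) and 46.7% in the 5 cells with both markers (40.9 to 83.5). The highest share was thus 46.7% among the Gad cells and 79.1% among the Slc17a6 cells. The groups overlap, with quartiles of 27.7 and 39.8% in the Gad cells and 32 and 54.8% in the Slc17a6 cells. They rest on the arbitrary cut and count siblings as separate cells. The Grin3a share of NMDA subunits had the smallest p, with a slope of 1.04 and a higher share in 12 of 18 siblings (permutation p = 0.0347, adjusted p = 0.336). For the Grin1 share the slope was -1.52 (permutation p = 0.0896, adjusted p = 0.336), with medians of 73.9% in the Slc17a6 cells and 57.8% in the Gad cells.

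Siblings share a progenitor, and the clone comparison asks whether they also share receptor levels. With tissue as a covariate, limma's moderated F test over 16 clones called none of the 31 genes, where 0.0198% of 15132 genes passed. An unadjusted p under 0.05 was reached by 2 genes, Cacng8 and Grm4, against 7.8% of all genes. Cacng8 was at 67.3 and 4.29 in the sSC siblings of clone K, at 90.9 and 24.9 in those of clone N and at 0 in both siblings of 7 clones. The correlation of its siblings was 0.479 (F = 3.02, unadjusted p = 0.00791, adjusted p = 0.478). For Grm4, a presynaptic receptor that lowers cyclic AMP, it was 0.491 (F = 2.31, unadjusted p = 0.0333, adjusted p = 0.597). Cnih3, Grin1, Grin2a and Grm5 followed with sibling correlations of 0.229, 0.224, 0.155 and 0.146 and adjusted p from 0.68 to 0.709 in limma. In the same test 1 of 8 astrocyte, 2 of 5 oligodendrocyte, 1 of 4 precursor and 1 of 8 microglial markers had an unadjusted p under 0.05. Siblings differed by a median of 0.313 log2 units for Grin2b and 0.7 for Gria1, and by 3.57 for Neto2 and 3.25 for Cacng7. The SD over all 36 cells was 1.125, 1.058, 2.572 and 2.408 for these genes in the same order. Their sibling correlations were -0.203, -0.0359, -0.0755 and 0.0141, and whether a small gap goes with sharing was not tested.

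Fz10-CreER and Sox2-CreER clones were compared within sSC, over 11 and 5 clone means. None of the 31 genes passed at an adjusted p of 0.05 in limma, where the percentage of 14320 genes was 0, and none had an unadjusted p under 0.05, against 4.1% of all genes. Shisa9, the AMPA receptor partner also known as CKAMP44, had the smallest p. Its median was 12.9 (0 to 171.5) in 15 Fz10-CreER cells and 88.5 (4.06 to 185.8) in 7 Sox2-CreER cells. The clone means were 3.69 ± 2.66 (SD, n = 11) and 5.99 ± 1.06 (SD, n = 5), a difference of -2.30 (SE 1.24, unadjusted p = 0.0729, adjusted p = 1, limma). Cacng8 (-1.49), Gria2 (-1.54), Cacng7 (-1.21) and Cacng3 (-1.59) were lower and Cacng2 (1.31) higher in Fz10-CreER clones, each with an adjusted p of 1 in limma. Single clones moved some of these: without clone Q the Cacng7 difference was -0.47, without clone N that of Cacng8 was -0.63, and without clone H those of Cacng3 and Cacng2 were -2.81 and 0.25. The median of the 31 differences was -0.52 beside -0.38 for all genes.

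Whether the difference between tissues depends on the driver was tested as an interaction. No gene of the 31 passed in limma, where 0.00684% of 14613 genes did, and none had an unadjusted p under 0.05, against 5.78% of all genes. Neto2 had the smallest p: its clone means were 3.60 ± 3.08 (SD, n = 11) in sSC and 5.41 ± 1.62 (SD, n = 7) in dSC of Fz10-CreER clones, and 4.20 ± 1.80 (SD, n = 5) and 2.78 ± 1.24 (SD, n = 4) in Sox2-CreER clones. The difference of differences was -3.23 (SE 1.89, adjusted p = 0.894, limma). Gria1 (-1.69), Cacng5 (-2.17), Grm5 (-1.93), Grik3 (1.83) and Grin1 (1.89) followed, with adjusted p from 0.913 to 0.952.

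Genes that act around these receptors were counted in the same fits. None of the 22 genes for postsynaptic scaffold and signalling proteins passed in any of the 5 limma comparisons. Of all genes 0% passed for tissue and driver, and the percentages for the others are given above. By direction 7 of the 22 were higher and 15 lower in sSC, close to all genes tested, of which 32.7% were higher. The scaffold gene Grip1, whose product binds AMPA receptors, had a tissue difference of -1.46 (SE 0.659, unadjusted p = 0.0325, adjusted p = 0.941, limma). None of the 18 genes for receptor assembly, pentraxins and editing passed either. Nptx2, a secreted pentraxin that gathers AMPA receptors, came closest, with a slope on balance of -0.46 (SE 0.104, unadjusted p = 0.000144, adjusted p = 0.139, limma), and the related Nptx1 had -0.25 (SE 0.113, unadjusted p = 0.0329, adjusted p = 1). In the same fit Gad2 and Slc32a1, which the balance contains, had adjusted p of 0.0725 and 0.139.

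Across the 36 cells the genes mostly varied in the same direction. Of the 435 pairs among 30 of them (Grin2c and Grin3b, mostly at 0, were left out), 363 had a Spearman rho above 0, with a median of 0.214. The highest were Gria2 with Shisa9 (0.642), Grin2a with Grin2b (0.632), Gria2 with Grm8 (0.556) and Cacng3 with Cnih3 (0.553). With the number of genes detected, 30 of the 32 genes had a rho above 0, with a median of 0.338, up to 0.629 for Grm4. Among all 14902 genes tested 91.9% had a rho above 0, with a median of 0.279. The part of library quality in the rho between genes was not tested.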

How the data were processed

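The deposited table gives a normalised signal per gene and cell for 55359 genes and 36 cells. Its title, given by the authors, is TPM of exon plus intron, but each cell sums to 2000000, so it was not treated as plain TPM. STAR 2.7.9a, R 4.0.3 and build GRCm39 are named per the submitters' processing notes. For the counting program, annotation, use of strand and formula of the values, nothing is given in the sources used here. All 36 columns were mapped by the number in their header, which equals the description label of 1 sample.

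Symbols came from GENCODE M21 by gene identifier, for 52083 genes and all 32 members. The 32 genes and the other lists were chosen with earlier results of these data known. Genes that reached 1 in at least 25% of cells were tested as log2(value + 1), with a pseudocount of 1. Grin3b did not pass this filter. Tissue, driver and interaction used clone means. Balance and the clone test used cells with clone as a factor. The tool was limma 3.58.1 in R 4.3.3 (trend and robust eBayes, Benjamini-Hochberg, 0.05). Shares used two-sided permutation tests over clones. For each comparison the members that passed are named, or else the 6 of smallest p. Scripts used Python 3.11.15, numpy 2.4.6 and pandas 2.3.3, and the tests were tested on simulated data. The plan assumed TPM, and its tests on a log scale serve this signal as well. Alternatives changed the pseudocount (0.1 and 10), the filter, the moderation, the scaling, the covariate, the blocking by clone, the minimum sum behind a share (1 and 100) and the cells left out. Leaving out each clone in the balance fit was added after the data were seen. Some genes of the same pathways, and 1 planned marker of another cell type, which was left out of its list, are not reported here.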

Additional observations from a re-analysis of the deposited data

Results flagged for a closer look

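In the 5 Sox2-CreER clones with sSC cells, clone H stood apart for a pair of TARP genes, with a gap to the nearest clone larger than Dixon's 95% limit. Its Cacng2 level was 0 on the log2(value + 1) scale, while the other 4 clones lay between 4.6 and 6.41. Its Cacng3 level was 0.735, while the others lay between 6.23 and 7.96. The sSC cell of clone H was the library with the second fewest genes, at 6180. Low values in this cell were not limited to TARP genes, and 11 of the listed genes were at 1 or more. Its cornichon sum was 0, its kainate sum 1.04 and its NMDA sum 24.7. The AMPA sum was 465.7 and that of Shisa9 and Neto2 115.7. Without this clone the driver difference of Cacng3 was -2.81 (SE 1.27, adjusted p = 0.705, limma) instead of -1.59, and that of Cacng2 was 0.25 instead of 1.31. Chance alone marks about 1 in 20 such groups, and 24 were looked at.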

How the results depend on the processing

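The number of the 31 genes (30 without the clone B library) past the threshold, and the number of shares past it, was 0 in each of the 74 combinations of a comparison and an alternative. Of 426 values of named genes and shares under alternatives, none passed the threshold, and the smallest adjusted p among them was 0.11. The sign stayed the same in 425. These include the F values of the clone comparison, which are never negative, so that for them the sign could not turn. The tissue difference of the Cacng2 share turned to 2.61 percentage points where the summed value had to reach 100, and the cause was not tested. The block by clone changed no call. The tissue difference of Cacng7, -1.27 in the fit reported, was -2.38 with the block and lay between -2.85 and -0.391 over all alternatives. The median tissue difference of all genes depended on the scaling: it was -0.56 with a pseudocount of 0.1, -0.10 with 10, -0.01 after quantile normalisation, 0.07 with the number of genes detected as a covariate and -0.14 without the clone B library. Of the 31 genes, 8 to 16 were higher in sSC under these settings. Leaving out a Sox2-CreER clone gave driver differences of -2.69 to -2.02 for Shisa9, -1.82 to -1.42 for Gria2, -2.03 to -0.629 for Cacng8, -1.73 to -0.468 for Cacng7, -2.81 to -1 for Cacng3 and 0.25 to 1.85 for Cacng2. Read depth is unknown, so no counting error can be given.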

Other observations

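The 2 PAG neurons entered the balance comparison as siblings, but not the tissue, clone, driver or interaction fits. One, a Gad cell of clone D, had Cacng7 at 128.0, the highest value of that gene in the 36 cells, and its dSC sibling was at 0. The other, an Slc17a6 cell of clone H, had Cacng7 at 0 and Grin2c at 12.9. AMPA subunits made up 40.8 and 59.9% of the summed AMPA and NMDA values in them.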
